A study of Homo sapiens with 6 samples.

Results

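The 42 genes described here encode the enzymes and lipid droplet proteins that make fatty acids and build them into glycerolipids. They were picked out by gene symbol, with no threshold on their values, and all 42 were found among the 25445 rows of the count table. The libraries came from MHCC-97H, an established human liver cancer cell line, cultured for 16 h in the presence of 10 μM 6j, a compound derived from sophoridine (a plant alkaloid), or of its solvent. Each group, 6j treated and non-treated, had 3 libraries, numbered as replicates 1 to 3, and nothing else differed between the groups in the labels. The comparison asked which transcripts change under 6j, in a study of how the compound acts on liver cancer cells and of ferroptosis, an iron-dependent cell death by lipid peroxidation.

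Fatty acids are made in the cytosol by carboxylation of acetyl-CoA and repeated condensation on fatty acid synthase, and are then elongated and desaturated at the endoplasmic reticulum. Acyltransferases attach them to a glycerol backbone to give phosphatidate, lipins remove its phosphate to give diacylglycerol, and diacylglycerol becomes either triacylglycerol, stored in lipid droplets, or membrane phospholipid. In liver cells much of this pathway is switched on by the transcription factors SREBP-1c and ChREBP, and the balance of saturated, monounsaturated and polyunsaturated chains sets how easily membrane lipids are oxidized.

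The total count per library was 31533403 to 38018349, and each level below is in CPM, the gene's count relative to the TMM normalized library size. The libraries did not carry the transcripts of differentiated hepatocytes. None of 10 hepatocyte markers was above 1 CPM in every library, TTR was at 0 in every library, ALB had counts in 1 library, and the summed level of the list was 0.661 to 1.65 CPM in non-treated and 1.25 to 1.92 CPM in 6j treated cells. The epithelial keratin KRT8 was at 515.7, 652.6 and 646.1 CPM in non-treated and at 384.6, 369.0 and 457.0 CPM in 6j treated cells, so the groups did not overlap (log2 fold change −0.58, adjusted p = 0.0211), while EPCAM was at 0 throughout. The 4 epithelial markers summed to 904.3 to 1108.7 CPM in non-treated and 704.7 to 823.2 CPM in 6j treated cells. Almost all of this was KRT8 and KRT18, with CDH1 at 0.106 to 0.345 CPM over all libraries. The fibroblast and stellate cell list summed to 269.3 to 329.3 and 247.8 to 314.7 CPM, almost all of it COL1A1 and COL3A1, with COL1A2 at 0. The leukocyte list summed to 39.8 to 70.5 and 41.9 to 52.2 CPM, almost all of it CD68 with PTPRC and CD3E at 0, the endothelial list to 2.19 to 6.25 and 1.87 to 4.03 CPM, and the adipocyte list to 0.488 to 0.666 and 0.312 to 0.582 CPM. No marker of any list was called, and the part of these markers in the results below was not tested. In bulk libraries, fewer cells with a transcript and less of it per cell cannot be told apart.

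A gene was called where edgeR's quasi-likelihood test gave a Benjamini-Hochberg adjusted p under 0.05 over all 15957 rows tested and the fold change was above 1.5, which is a log2 fold change of 0.585. Of the 42 genes, 38 had enough counts to be tested. Of these, 8 were called higher in 6j treated cells (ACSS2, FASN, SCD, FADS1, FADS3, LPIN1, LPCAT1 and PNPLA3), whereas 2.48% of all rows tested were called higher. No gene of the pathway was called lower by edgeR, where 1.12% of all rows were, although DESeq2 called 1 lower. At edgeR's unadjusted p under 0.05 there were 14 genes with positive and 6 with negative values. The share of all rows at that level was not computed. At an adjusted p under 0.05 without the fold threshold there were 10 genes, against 9.16% of all rows. The median log2 fold change of the 38 genes was 0.043 against 0.0046 for all rows, and of the 30 genes not called 13 had a positive and the rest a negative value. The 3 libraries of 6j treated cells all lay above the non-treated ones in 12 genes and below them in 7, where 16.0% and 15.8% of all rows did so.

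The call depended on the model in a pair of genes. Same-numbered libraries tended to deviate together from the means of their groups. In the fit with a replicate block, 7 genes were called higher and 1 lower, where 4.01% of all rows were called higher and 2.46% lower. At an adjusted p under 0.05 alone this fit gave 20 of the 38 genes, 14 higher and 6 lower, where 26.9% of all rows passed. LPCAT1 lost its call there because its log2 fold change of 0.58 fell just under the threshold, and DGAT2 was called lower. DESeq2 without a block called the same 8 genes higher and DGAT2 lower, where 5.55% of all rows that it gave an adjusted p were called in either direction. The calls changed with the library left out, and so did those over all rows, which were 574 with every library. Without 6j replicate 2 only SCD and LPIN1 were called, and 193 over all rows. Without non-treated replicate 1 there were 3 genes called (SCD, LPIN1 and PNPLA3), and 186 over all rows. Without non-treated replicate 3 there were 4 (the same 3 and ACSS2), and 379 over all rows. These fits have fewer samples, and the cause of the lost calls was not tested. Of the 8 genes, 6 had their highest level in 6j replicate 2 and 5 had their lowest in non-treated replicate 3, which was so in 30.7% and 37.2% of all rows. Nothing says whether the libraries came from separate cultures, so the p-values measure the spread between these libraries, which may be technical.

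**Figure D1:**
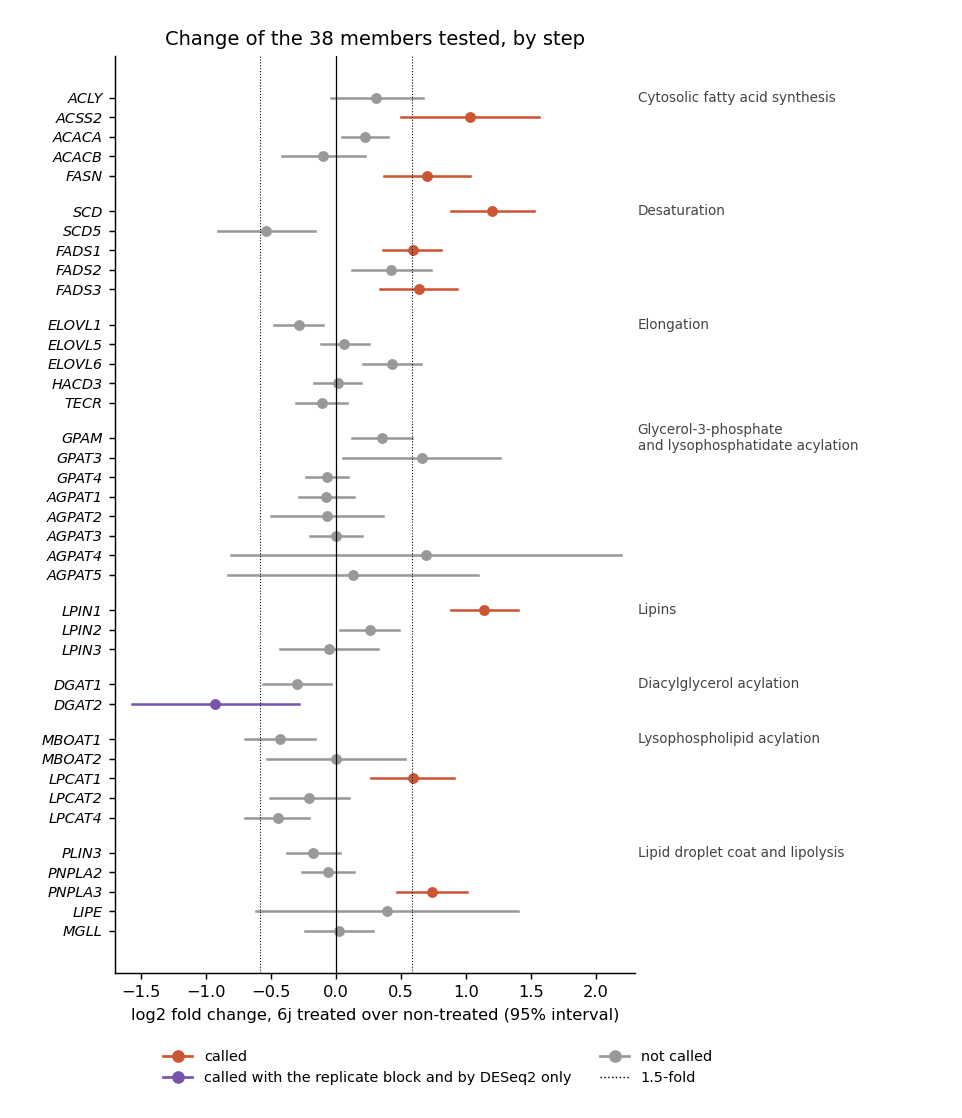
Log2 fold change of 6j treated over non-treated cells for the 38 genes tested, grouped by step, with the 95% interval of edgeR's fit as the bar and 1.5-fold as dotted lines. The 8 genes called lie right of the upper dotted line in 5 of the 8 steps, and DGAT2 (purple), called with the replicate block and by DESeq2 only, is the farthest to the left.

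In the first step, cytosolic fatty acid synthesis, ACSS2 and FASN were called higher and ACLY, ACACA and ACACB were not. The gene ACSS2 (chromosome 20, 34872146 to 34927962, GRCh38) encodes the cytosolic acetyl-CoA synthetase, which makes acetyl-CoA from acetate. It was at 56.9, 75.0 and 40.3 CPM in non-treated and at 117.1, 131.8 and 102.3 CPM in 6j treated cells, in the order of replicates 1 to 3. Replicate 3 was the lowest and replicate 2 the highest in both groups, and all 3 treated libraries lay above all 3 controls. The log2 fold change was 1.03 (SE 0.22, 95% interval 0.50 to 1.56, adjusted p = 0.0371), a 2.04-fold rise. With 1 library left out at a time, ACSS2 was called in 2 of 6 fits, and without any 1 of the 6j libraries or without non-treated replicate 1 the adjusted p was 0.077 to 0.141.

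FASN (chromosome 17, 82078333 to 82098332) encodes fatty acid synthase, the multifunctional enzyme that assembles palmitate. It was at 1017.8, 943.4 and 695.5 CPM in non-treated and at 1571.7, 1461.1 and 1293.0 CPM in 6j treated cells. The order of replicates was the same in both groups, with replicate 3 lowest, and the groups did not overlap. FASN rose by 0.70 on the log2 scale (SE 0.15, 95% interval 0.37 to 1.03, adjusted p = 0.022). It kept its call only without 6j replicate 3, and in the other 5 fits that left out 1 library its adjusted p was 0.0452 to 0.0976 and its log2 fold change 0.56 to 0.82.

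Acetyl-CoA carboxylase 1, which commits acetyl-CoA to fatty acid synthesis, is encoded by ACACA (chromosome 17, 37084988 to 37406818). Its level was 168.3, 149.8 and 149.2 CPM in non-treated and 178.0, 185.6 and 181.3 CPM in 6j treated cells. The treated libraries all lay above the controls, but by little, with a log2 fold change of 0.22 (SE 0.079, 95% interval 0.043 to 0.40, adjusted p = 0.114). With the replicate block its adjusted p was 0.028, and the interval without the block lies wholly under 1.5-fold. ACACB, the carboxylase isoform of the mitochondrial surface, was at 17.9 ± 1.56 and 16.7 ± 2.60 CPM (SD, n = 3 each). ACLY, which releases acetyl-CoA from citrate, was at 499.0 ± 94.0 and 620.7 ± 92.5 CPM (SD, n = 3 each), which was not called (log2 fold change 0.31, adjusted p = 0.246).

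Desaturation was the step with the most calls, 3 of 5 genes. SCD (chromosome 10, 100347124 to 100364834) encodes stearoyl-CoA desaturase, which puts the first double bond into saturated chains and so makes oleate and palmitoleate. It was the most abundant of the 42 transcripts per length of exon, at 286.8 CPM per kb in non-treated and 659.3 CPM per kb in 6j treated cells. Its level was 1648.6, 1691.9 and 1272.9 CPM in non-treated and 3031.5, 3892.7 and 3681.3 CPM in 6j treated cells. The lowest treated library was thus well above the highest control. The log2 fold change of 1.2 (SE 0.14, 95% interval 0.88 to 1.52, adjusted p = 0.0036) was a 2.3-fold rise and was called in all 6 fits that left out 1 library, at 1.08 to 1.3. Only a test against 1.5-fold itself did not call it (glmTreat, adjusted p = 0.0626).

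SCD5, the second stearoyl-CoA desaturase of the human genome, was at 10.8, 9.9 and 13.2 CPM in non-treated and at 6.77, 8.07 and 8.59 CPM in 6j treated cells. Its libraries lay the other way round, all treated ones below all controls, with a log2 fold change of −0.54 that was not called (adjusted p = 0.0785, and 0.014 with the replicate block, still under the fold threshold). SCD held 99.1% of the summed level per length of both desaturases in non-treated and 99.7% in 6j treated cells.

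FADS1, FADS2 and FADS3 lie side by side on chromosome 11 between 61792980 and 61892051. FADS1 and FADS2 encode the delta-5 and delta-6 desaturases of polyunsaturated fatty acid synthesis, and FADS3 a related desaturase that acts on sphingoid bases. FADS1 was at 193.0, 207.9 and 177.0 CPM in non-treated and at 267.9, 323.0 and 277.9 CPM in 6j treated cells. The groups did not overlap, and its log2 fold change of 0.59 (SE 0.10, 95% interval 0.36 to 0.81, adjusted p = 0.0116) was just above the threshold. FADS1 was not called without 6j replicate 2 (log2 fold change 0.50, adjusted p = 0.0607), non-treated replicate 1 (0.59, adjusted p = 0.0652) or non-treated replicate 3 (0.53, adjusted p = 0.0422).

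FADS3 was at a lower level per length (3.62 against 18.8 CPM per kb for FADS1 in non-treated cells), with 19.8, 25.4 and 23.1 CPM in non-treated and 34.9, 40.0 and 31.2 CPM in 6j treated cells. All treated libraries were above all controls, and the log2 fold change was 0.64 (SE 0.13, 95% interval 0.34 to 0.93, adjusted p = 0.0201). FADS3 lost its call in the fits without the same 3 libraries, each left out alone, with an adjusted p of 0.0588 to 0.10. FADS2, with 59.3, 60.1 and 49.2 CPM in non-treated and 84.1, 81.2 and 60.9 CPM in 6j treated cells, was not called (log2 fold change 0.42, adjusted p = 0.0836). Its groups did not overlap either, and with the replicate block its adjusted p was 0.000707 while the fold stayed under 1.5. Exons of FADS1 and FADS2 overlap on opposite strands and FADS2 shares exon bases with FEN1 on its own strand. Whether strand was used in the counting is not given in the sources used here, so reads there cannot be told apart.

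**Figure D2:**
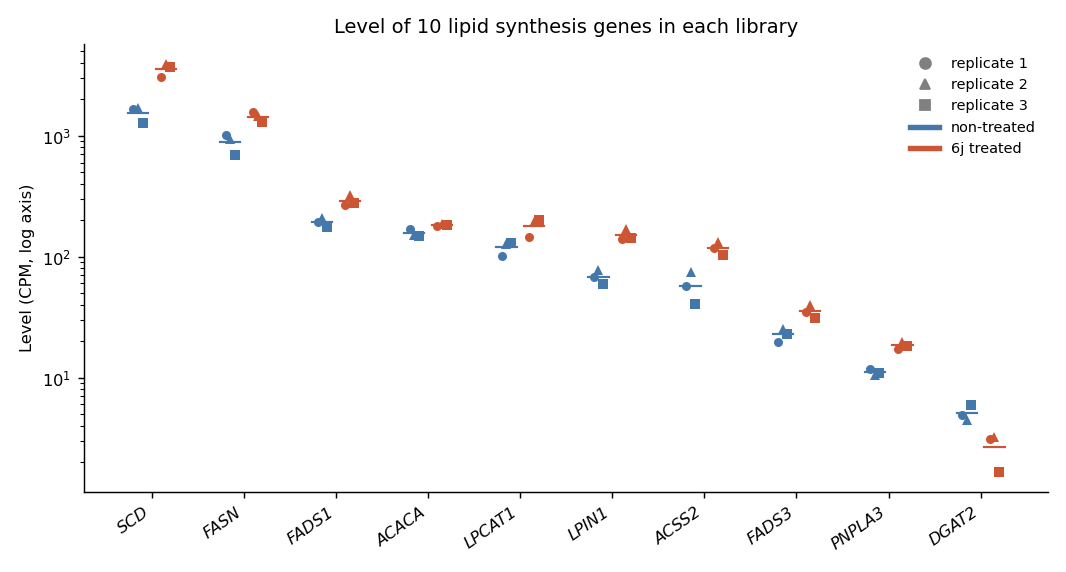
Level in CPM (log axis) of the 10 genes given library by library, with 1 point per library, replicates 1 to 3 as circle, triangle and square, and the group mean as a line. The 8 genes called higher and ACACA have all 6j treated points above the non-treated ones, and DGAT2 has them below.

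The starts of the genes that rose were read from RefSeq promoters (GRCh38.p14, 250 bases before to 50 bases after a start) for the short motifs of factors that are known to drive lipid and stress genes. The table held 32 of the 42 genes, with 50 windows, and 6 of the 9 genes called in any model. Motifs were searched on both strands as the sterol response element TCACNCCAC, the CCAAT box, the element TGATGNAA bound by ATF4 with C/EBP partners, and the E-box CACGTG, each counted by itself whether or not it overlapped another. A CCAAT box was present in 34.6% of 35116 promoters and in 25 of the 50 windows, from 19 genes. The sterol response element was in 1.13% of all promoters and in 1 of the windows (PNPLA2), TGATGNAA in 3.62% and in 0, and the E-box in 7.26% and in 4 (ELOVL4, ELOVL5, LPIN2 and PLIN2). Among the genes called, only SCD, FADS3 and ACSS2 held a motif, in each case the CCAAT box. These 3 stretches are shown because the rises of SCD, FADS3 and ACSS2 are reported above, with the box in capitals (as its reverse complement where it reads on the opposite strand). A match is no more than a run of letters, and the windows of FADS1, LPIN1 and LPCAT1 did not hold any of these motifs. Variants of the motifs were not searched for. The lack of a match, also of the sterol response element in SCD, therefore does not show that an element is absent. The stretches lie at chr10:100346984-100347071 (plus strand, upstream of SCD and in no annotated exon), chr11:61891644-61891716 (minus strand, inside FADS3 but in no exon) and chr20:34874846-34874890 (plus strand, inside ACSS2 but in no exon).
SCD: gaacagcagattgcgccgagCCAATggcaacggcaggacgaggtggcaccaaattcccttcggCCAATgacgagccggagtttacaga
FADS3: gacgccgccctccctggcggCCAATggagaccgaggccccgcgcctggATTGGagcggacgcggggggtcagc
ACSS2: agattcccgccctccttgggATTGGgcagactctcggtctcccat

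In elongation, none of the 5 genes tested was called by edgeR or DESeq2, with 1 higher and 1 lower at an unadjusted p under 0.05, and their log2 fold changes ran from −0.29 to 0.43. ELOVL6, which lengthens palmitate to stearate, the chain that SCD desaturates, came closest, at 41.6 ± 3.68 and 56.0 ± 3.87 CPM (SD, n = 3 each). Its groups did not overlap and its adjusted p was 0.0299, but the log2 fold change of 0.43 was under the threshold. ELOVL1, which makes saturated very long chains, lay the other way, at 75.1 ± 1.97 and 61.4 ± 5.08 CPM (SD, n = 3 each), with a log2 fold change of −0.29 (adjusted p = 0.0632, and 0.00873 with the replicate block). ELOVL5, which lengthens polyunsaturated chains, was at 220.4 ± 10.5 and 230.2 ± 15.2 CPM (SD, n = 3 each), and HACD3 and TECR, the dehydratase and reductase that close each elongation cycle, had log2 fold changes of 0.012 and −0.11. The summed level of the elongases per length was 93.5 ± 3.51 and 92.5 ± 1.69 CPM per kb (SD, n = 3 each), of which ELOVL5 held 61.8% and 65.2%.

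The other elongases were at or near 0. ELOVL4 had no count in any library, which allows up to 0.0781 to 0.0951 CPM taking 3 counts as the limit of a 0, for counting error only. This takes each count as a separate fragment, which is not stated in the sources used here, and the limit would otherwise be higher. ELOVL2 had 2, 0 and 2 counts in non-treated and 0, 0 and 2 in 6j treated cells, and ELOVL7 had 0 in all controls and 4, 0 and 2 counts in 6j treated cells. These genes were not tested, and no difference was detectable at this depth.

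None of the 8 enzymes that load the glycerol backbone was called by edgeR or DESeq2, and 2 had an unadjusted p under 0.05. Of the 3 glycerol-3-phosphate acyltransferases and 5 lysophosphatidate acyltransferases (AGPATs), 4 had positive and 4 negative log2 fold changes, and the median was 0.065. GPAM, the mitochondrial acyltransferase, was at 40.0 ± 2.93 and 50.9 ± 4.63 CPM (SD, n = 3 each), with treated libraries all above controls and a log2 fold change of 0.35 (adjusted p = 0.0617, and 0.0114 with the replicate block). GPAT4, an isoform of the endoplasmic reticulum and the GPAT with the highest level per length, was at 117.4 ± 1.18 and 111.6 ± 2.89 CPM (SD, n = 3 each). GPAT3 was at 3.16, 3.39 and 3.07 CPM in non-treated and at 6.06, 5.90 and 3.20 CPM in 6j treated cells, so that 6j replicate 3 stood with the controls. GPAT3 was not called (log2 fold change 0.66, adjusted p = 0.158) but would have been without that library (0.90, adjusted p = 0.0391).

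The summed level of the AGPATs was 55.5 ± 4.19 and 54.7 ± 3.77 CPM per kb (SD, n = 3 each), and the log2 fold changes of AGPAT1, AGPAT2 and AGPAT3 were between −0.076 and −0.00047. AGPAT5 followed the replicate number rather than the treatment, with 43.5, 45.2 and 75.4 CPM in non-treated and 40.9, 50.8 and 88.3 CPM in 6j treated cells. AGPAT4 was barely detected, at 3 to 15 counts per library.

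Lipins dephosphorylate phosphatidate to diacylglycerol, and LPIN1 also acts in the nucleus as a co-regulator of transcription. LPIN1 (chromosome 2, 11677595 to 11827409) was at 68.5, 77.0 and 59.2 CPM in non-treated and at 140.1, 168.3 and 144.0 CPM in 6j treated cells. The lowest treated library was well above the highest control, and the log2 changes within replicate numbers 1 to 3 were 1.03, 1.13 and 1.28. This was a log2 fold change of 1.14 (SE 0.12, 95% interval 0.88 to 1.4, adjusted p = 0.00174) and a 2.21-fold rise. Of the 8 genes called, LPIN1 was the only one called by the test against 1.5-fold itself (glmTreat, adjusted p = 0.0403), and like SCD it was called in all 6 fits that left out 1 library (1.05 to 1.24). LPIN1 was among the genes that the study picked from these libraries and reports as higher in 6j treated cells by RT-qPCR.

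The other lipins were not called. LPIN2 was at 78.2 ± 7.16 and 93.4 ± 8.45 CPM (SD, n = 3 each) with a log2 fold change of 0.26 (adjusted p = 0.14), and LPIN3 was at 26.2 ± 2.56 and 25.2 ± 6.09 CPM (SD, n = 3 each) with −0.056 (adjusted p = 0.875). Per length of exon, LPIN1 made up 26.0%, 25.4% and 23.5% of the summed lipin level in non-treated and 41.1%, 42.4% and 36.0% in 6j treated cells. LPIN2 remained the lipin with the largest share, at 50.1 ± 1.33% and 42.9 ± 0.166% (SD, n = 3 each), although in 6j treated cells the shares of LPIN1 and LPIN2 were close, and the family as a whole went from 23.0 ± 2.29 to 32.0 ± 2.78 CPM per kb (SD, n = 3 each).

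**Figure D3:**
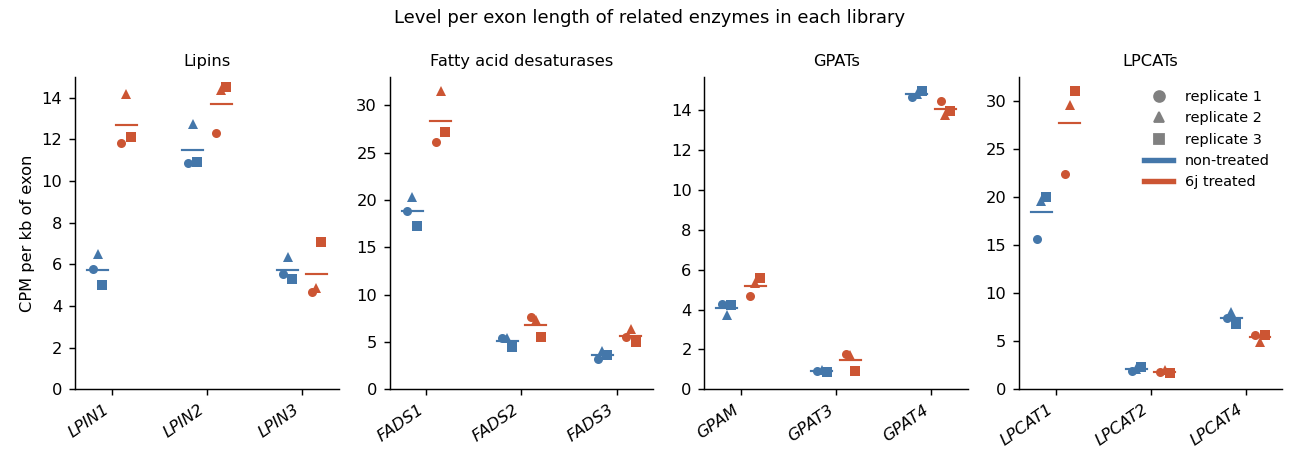
Level in CPM per kb of exon of the lipins, the fatty acid desaturases, the glycerol-3-phosphate acyltransferases (GPATs) and the lysophosphatidylcholine acyltransferases (LPCATs) in each library, with the group mean as a line. LPIN1 went from 5.75 to 12.7 CPM per kb, close to LPIN2, and LPCAT1 from 18.4 to 27.7 CPM per kb while LPCAT4 went from 7.45 to 5.43 CPM per kb.

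In the last step to triacylglycerol, the treated libraries lay below all controls for both genes. DGAT2 (chromosome 11, 75759512 to 75801535) encodes the acyltransferase that uses mainly newly made fatty acids. It was at 4.86, 4.47 and 5.97 CPM in non-treated and at 3.10, 3.25 and 1.66 CPM in 6j treated cells, on 57 to 208 counts per library. The groups did not overlap, and 6j replicate 3 was far below the other treated libraries. Its log2 fold change of −0.93 (SE 0.28, 95% interval −1.57 to −0.29) did not pass (adjusted p = 0.0733), but was called with the replicate block (−0.96, adjusted p = 0.0251) and by DESeq2 (−0.93, adjusted p = 0.0238). Without 6j replicate 3 it was −0.68 (adjusted p = 0.117). DGAT1, which also re-esterifies fatty acids, was at 35.6 ± 1.22 and 29 ± 4.04 CPM (SD, n = 3 each), with a log2 fold change of −0.30 (adjusted p = 0.141, and 0.0367 with the replicate block). It held 93.1% and 95.3% of the summed level of both genes per length.

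Lysophospholipid acyltransferases remodel the chains of membrane phospholipids. LPCAT1 (chromosome 5, 1456480 to 1523977), which places saturated chains into phosphatidylcholine, was at 101.5, 127.2 and 129.6 CPM in non-treated and at 145.7, 191.8 and 201.3 CPM in 6j treated cells. Replicate 1 was lowest in both groups and the groups did not overlap. LPCAT1 rose by 0.59 on the log2 scale (SE 0.14, 95% interval 0.27 to 0.91, adjusted p = 0.0361), and was called only without 6j replicate 1 among the fits that left out 1 library, with an adjusted p of 0.066 to 0.143 in the other 5. With the replicate block the log2 fold change of 0.58 had an adjusted p of 7.88e-05 but missed the fold threshold.

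The other 4 genes of this step had negative log2 fold changes. LPCAT4 was at 35.7 ± 2.98 and 26.1 ± 2.15 CPM (SD, n = 3 each), and its log2 fold change of −0.45 had an adjusted p of 0.0329 but stayed under the fold threshold. MBOAT1, which acylates lysophosphatidylserine and lysophosphatidylethanolamine with oleate, was at 27.5 ± 2.54 and 20.4 ± 2.26 CPM (SD, n = 3 each), with −0.43 (adjusted p = 0.0569, and 0.00439 with the replicate block) and log2 changes within replicate numbers of −0.41, −0.42 and −0.46. LPCAT2 and MBOAT2 had log2 fold changes of −0.21 and −0.0014, and their groups overlapped. LPCAT1 made up 65.7 ± 2.96% of the summed LPCAT level per length in non-treated and 79.0 ± 3.36% in 6j treated cells, and LPCAT4 26.8 ± 3.16% and 15.8 ± 2.91% (SD, n = 3 each).

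Of the genes of the lipid droplet coat and of lipolysis, only PNPLA3 was called. PNPLA3 (chromosome 22, 43923739 to 43964488) encodes adiponutrin, a droplet protein with lipase and acyltransferase activity that is induced with fatty acid synthesis in liver. It was at 11.7, 10.5 and 11 CPM in non-treated and at 17.2, 19.8 and 18.4 CPM in 6j treated cells. The libraries of a group lay close together and the groups did not overlap. The log2 fold change was 0.74 (SE 0.12, 95% interval 0.47 to 1.01, adjusted p = 0.0108), and of the fits that left out 1 library only the one without 6j replicate 2 did not call it (0.68, adjusted p = 0.0586). PNPLA3 shares exon bases with SAMM50 on the same strand, so the counting could have split their reads.

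No other gene of this step was called by edgeR or DESeq2, and none of them had an unadjusted p under 0.05. PLIN3, a coat protein found on most cells' droplets, was at 147.2 ± 11.5 and 130.3 ± 9.66 CPM (SD, n = 3 each), with a log2 fold change of −0.18 (adjusted p = 0.261). PLIN2, the coat protein that usually follows droplet content in liver cells, had 2 counts in 1 non-treated library and 0 elsewhere in this table, and was not tested. PNPLA2 (the triacylglycerol lipase ATGL) and MGLL (monoacylglycerol lipase) had log2 fold changes of −0.061 and 0.023, with 95% intervals of −0.26 to 0.14 and −0.24 to 0.28. LIPE, the hormone-sensitive lipase, was at 0.634 to 1.4 CPM in all libraries and its groups overlapped.

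Compared by replicate number, 16 of the 38 genes were higher in 6j treated cells in all 3 comparisons and 9 were lower in all 3, where 28.4% and 28.7% of all rows were. The changes of the genes called were positive in each. They were largest in replicate 3 for 6 of the 8, namely SCD (0.88, 1.2 and 1.53), ACSS2 (1.04, 0.81 and 1.34), FASN (0.63, 0.63 and 0.89), FADS1 (0.47, 0.64 and 0.65), LPCAT1 (0.52, 0.59 and 0.63) and LPIN1. How often replicate 3 had the largest change over all rows was not computed, so this may not be particular to these genes. PNPLA3 was highest in replicate 2 (0.55, 0.91 and 0.74) and FADS3 in replicate 1 (0.82, 0.66 and 0.43). The change of DGAT2 was also farthest from 0 in replicate 3, at −0.64, −0.45 and −1.81.

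**Figure D4:**
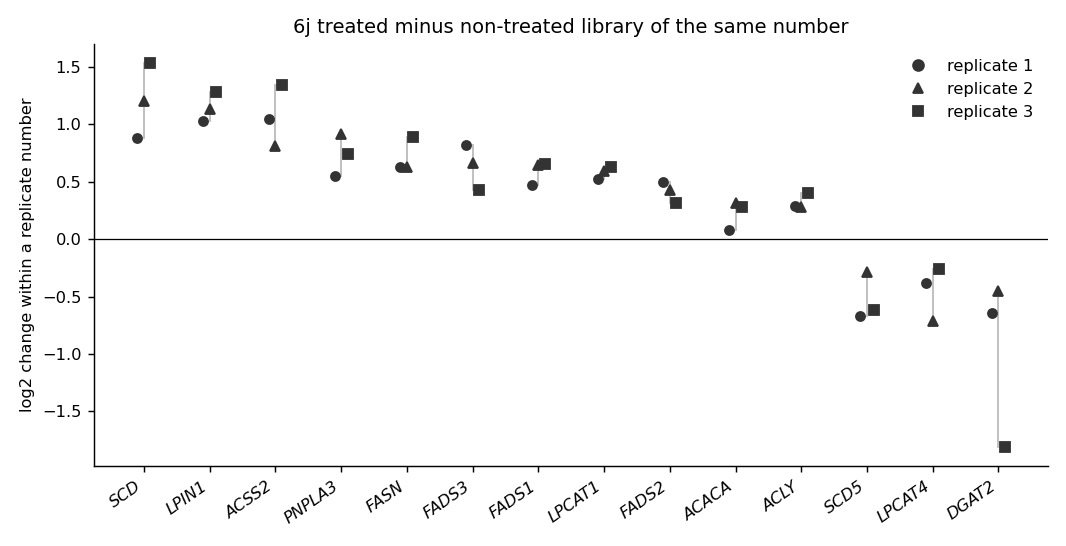
Log2 change of 6j treated minus non-treated library within each replicate number, for the genes called and 6 others, on log2 CPM with a prior count of 2. Every point of the 8 genes called is above 0, every point of SCD5, LPCAT4 and DGAT2 is below 0, and DGAT2 reaches −1.81 in replicate 3.

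Whether related enzymes responded unequally was tested on the log2 ratio of 2 genes in each library, for 8 pairs, by two-sided exact permutation tests over libraries. With 3 libraries against 3 no p can be below 0.1, and 0.1 becomes 0.16 after Benjamini-Hochberg adjustment over the pairs. No pair could therefore pass, and the tests cannot decide the question for any of them. The ratios of 5 pairs were apart in all libraries (p = 0.1 each, exact permutation test). How often this is so for other pairs of genes was not computed. Of single rows, 16.0% had all treated libraries above the controls and 15.8% below them. LPIN1, SCD and LPCAT1 were already called higher, so the ratios that hold them are not independent of those calls. LPIN1 over LPIN2 went from −0.20 to 0.69, a change of 0.89 against an SD of 0.12 between libraries. LPIN1 over LPIN3 changed by 1.22 (SD 0.28), LPCAT1 over LPCAT4 by 1.04 (SD 0.28), and GPAM over GPAT4 by 0.42 (SD 0.14). SCD over SCD5 had the largest change of the 8 pairs, 1.73 (SD 0.31). The ratios of the other 3 pairs overlapped between groups. FADS1 over FADS2 changed by 0.17 against an SD of 0.19 (p = 0.4, exact permutation test), so a difference between the delta-5 and delta-6 desaturases was not resolved. ACACA over ACACB changed by 0.33 (SD 0.19) and DGAT1 over DGAT2 by 0.66 (SD 0.44), each at p = 0.2 in the exact permutation test.

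Beside these genes, a list of 79 other lipid genes was read, of which 65 were tested. Of these 65, 7 were called higher and 0 lower by edgeR, where 2.48% and 1.12% of all rows were. At edgeR's unadjusted p under 0.05 there were 11 with positive and 5 with negative values, a share not computed over all rows. DESeq2 called 1 lower, the elongase gene ELOVL3. Among regulators, INSIG1, MLXIPL and PPARA were called and SREBF1, the gene of SREBP-1, was not. INSIG1, which holds SREBP in the endoplasmic reticulum and is itself an SREBP target, was at 125.0, 181.0 and 103.9 CPM in non-treated and at 276.3, 431.5 and 321.6 CPM in 6j treated cells (log2 fold change 1.33, SE 0.25, adjusted p = 0.0293). Replicate 2 was the highest in both groups. SREBF1 was at 267.8, 231.2 and 232.5 CPM in non-treated and at 259.4, 213.6 and 197.4 CPM in 6j treated cells, and its groups overlapped (log2 fold change −0.13, 95% interval −0.38 to 0.13, adjusted p = 0.539). The interval lies within 1.5-fold on both sides. SREBF2, the other SREBP gene, was not called either, but its treated libraries all lay above the controls. Its log2 fold change was 0.32 (95% interval 0.12 to 0.53, adjusted p = 0.0579, and 0.00219 with the replicate block).

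MLXIPL, the gene of ChREBP, had the largest log2 fold change of the 7, 1.94 (SE 0.36, adjusted p = 0.018), from a low level. It was at 3.29, 4.06 and 2.18 CPM in non-treated and at 13.7, 16.2 and 6.70 CPM in 6j treated cells, with replicate 3 the lowest in both groups. PPARA, the nuclear receptor of fatty acid oxidation, rose by 0.77 on the log2 scale (adjusted p = 0.0181). The rest of the 7 were IDH1, a cytosolic source of NADPH (0.68, adjusted p = 0.0198), HACD2, a dehydratase of chain elongation (0.61, adjusted p = 0.0376), CHKA, the choline kinase (0.69, adjusted p = 0.019), and PCYT2, which activates phosphoethanolamine (0.61, adjusted p = 0.0242). None of the 9 other lipid droplet genes, 6 genes of mitochondrial fatty acid synthesis, 5 lipin partners and phosphatases or 4 other acyltransferases tested was called by edgeR or DESeq2, and at an unadjusted p under 0.05 there were 1, 1, 0 and 1 of them. Of the 7 calls, none was left without 6j replicate 2 or without non-treated replicate 1. Over all rows the calls fell from 574 to 193 and 186 in these fits. With the replicate block 8 of the 65 other lipid genes tested were called higher and 2 lower, where 4.01% and 2.46% of all rows were. Beside the 7, the block called INSIG2 higher (log2 fold change 0.68, adjusted p = 0.00164), and ELOVL3 (−1.19, adjusted p = 0.0275) and the ethanolamine kinase gene ETNK2 (−0.78, adjusted p = 0.0185) lower.

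**Figure D5:**
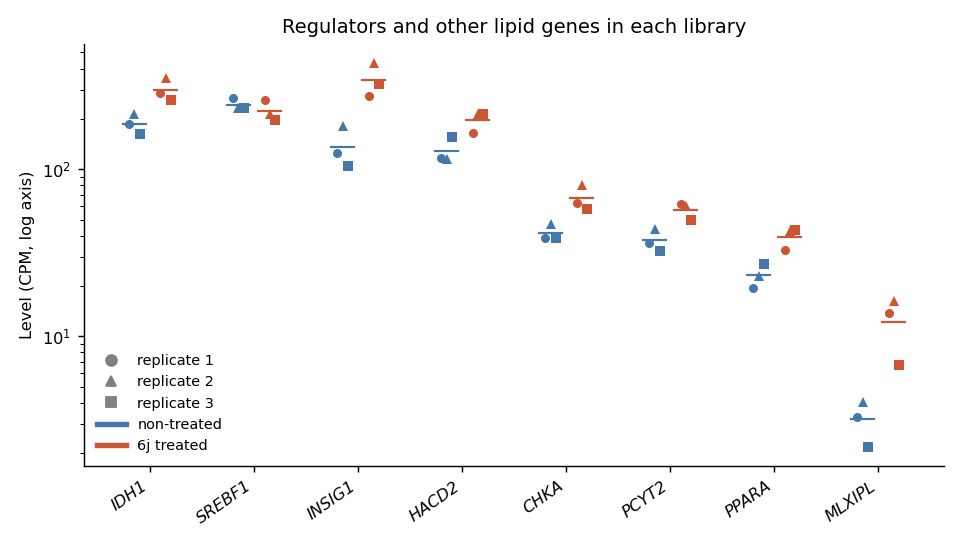
Level in CPM (log axis) of SREBF1 and of the 7 other lipid genes that were called, with 1 point per library and the group mean as a line. The groups overlap for SREBF1 (197.4 to 267.8 CPM over all libraries) and are apart for the other 7.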

How the data were processed

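RNA sequencing measured 3 libraries of non-treated and 3 of 6j treated MHCC-97H cells, made from RNA enriched with oligo(dT) beads. The table deposited by the authors holds raw counts, 1 whole number for each gene and library, and replicates were not pooled. The submitters' processing notes name HISAT2, StringTie and GRCh38, and the paper's methods name DESeq2 with a 1.5-fold change and p under 0.05. The counting program, its strand setting and versions are not given in the sources used here, and counts may be rounded estimates. No column was left out (0 not used). The table's 5471 new genes were tested but not named.

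The counts were fitted with edgeR 4.0.16 (R 4.3.3, limma 3.58.1) after filterByExpr (minimum count 10, minimum total 15) and TMM normalization, by robust quasi-likelihood models without covariates over all 15957 rows kept, of which only the pathway's are printed. Standard errors came from the F statistic. Log2 CPM values had 2 as prior count. As an alternative, DESeq2 1.42.0 was run, leaving out rows without an adjusted p. The scripts were tested on simulated counts. Pairs of genes were compared by exact permutation tests (Python 3.11.15, scipy 1.17.1). Exon lengths and positions are those of GENCODE 29 (GRCh38), found for all 42 genes by Ensembl identifier, and CPM per kb divides by the union of exons of the gene. Promoters are those of RefSeq (GRCh38.p14), and proteins were not analysed here.

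The 42 genes, the 79 other lipid genes and the marker lists were chosen with earlier results of these data known. Values in every library are given for genes called by edgeR with or without the block or by DESeq2, and for FASN, SCD, ACACA and DGAT2. Other lipid genes are named where edgeR called them without the block, besides SREBF1 and INSIG1. SCD5, FADS2, GPAT3, AGPAT5, ELOVL3, ETNK2, INSIG2, SREBF2 and KRT8 were given library by library, or named with their values, after these had been seen. The groups share replicate numbers, whose meaning the labels do not give. Deviations from the group means correlated at 0.171, 0.18 and 0.312 in same-numbered libraries against −0.231 to 0.0795 in the others. A fit with the replicate block was therefore made as an alternative. The main fit and the permutation tests did not use the replicate numbers. The other alternatives were DESeq2's size factors in edgeR, no filter, a filter at 1 CPM in 3 libraries, a formal test of 1.5-fold (glmTreat), other thresholds, a prior count of 0.5 and leaving out each library. DESeq2 with the replicate block was added after the data had been seen. Intervals and limits of a count of 0 cover counting error and the spread between these libraries only.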

Additional observations from a re-analysis of the deposited data

How the results depend on the processing

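The 8 calls of the pathway stayed within 7 to 10 under RLE size factors, no filter, a stricter filter, the replicate block, DESeq2 with or without it and other thresholds. The formal test of 1.5-fold called 1, and the fits leaving out 1 library called 2 to 7, fewest without 6j replicate 2. At most 6 of the 8 were among these, and the 7 without 6j replicate 3 include GPAT3. The calls among the other lipid genes went from 7 to 0 under glmTreat, to 11 without the fold threshold and to 0 to 6 with 1 library left out. Over all rows the 574 calls became 1033 with the replicate block, 875 with DESeq2 and the replicate block, 32 under glmTreat, 1462 without the fold threshold, 1251 with DESeq2's unadjusted p, and 186 to 772 with 1 library left out, fewest (186, 193 and 379) when non-treated replicate 1, 6j replicate 2 or non-treated replicate 3 was the one removed. The cause was not tested, except that fits leaving out a library have fewer samples. The median log2 fold change of the pathway was 0.022 to 0.14 with 1 library left out, the highest (0.14) without non-treated replicate 3 and next (0.13) without 6j replicate 1. Of 240 alternative values for 20 named genes, 49 lost a call, 3 gained one (DGAT2) and 0 changed sign. Without a filter ACSS2 (adjusted p = 0.0815) and INSIG1 (0.0689) were not called. No log2 ratio of a pair changed sign in any alternative, with the replicate block it was 0.17 to 1.73 over the pairs, and apart from LPCAT1 and DGAT2 the block changed no call of a gene of the pathway. Little could be read for ELOVL2, ELOVL4, ELOVL7 and PLIN2, which had 0 to 4 counts per library, and the reason for these low counts was not tested.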
